A study of Homo sapiens with 7 samples.

Results

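CREBBP and EP300 are paralogous histone acetyltransferases that are brought to enhancers and promoters by DNA-bound factors, and this section compares how strongly each was recovered at their common sites in OCI-Ly7, an established human cell line of diffuse large B-cell lymphoma. Each CREBBP peak on chromosomes 1 to 22 and X was paired with the EP300 peak that it overlapped by 1 bp or more, the nearest summit deciding where there were several. Of 44585 CREBBP peaks, 41070 found a partner (92.1%, exact binomial 95% interval 91.9 to 92.4). Their partners were 34633 of the 82569 EP300 peaks (41.9%, 41.6 to 42.3). The 6 factor lists of the series hold 323423 peaks on these chromosomes.

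The series mapped both acetyltransferases, the Mediator subunit MED1, the octamer factors OCT1 and OCT2 and their coactivator OCA-B by chromatin immunoprecipitation and sequencing (ChIP-seq) in OCI-Ly7 suspension cultures for which the labels name no treatment, with an input library beside them. Each factor had 1 library from the 1 line, so no difference below has a replicate check and no p-value is given. Intervals cover counting error only and treat neighbouring sites as independent. After duplicate removal the CREBBP library held 12357450 tags and the EP300 library 27885791. The redundant rate in the file headers was 0 for CREBBP and 0.2 for EP300, and the modelled fragment length was 164 bp against 152 bp. The pileup, the number of extended tags that cover a summit, cannot pass 2 fragment lengths when 1 tag is kept per position, and the highest pileups were 328 and 304, exactly at those ceilings. Within 10% of the ceiling lay 0.648% of all CREBBP and 1.55% of all EP300 peaks, and 0.704% and 6.61% of the pairs, the latter with partners counted once per pair.

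The antibodies in the labels raise a question about direction. The sample titled CREBBP lists the Santa Cruz antibody 584 and the sample titled EP300 lists antibody 369. As general background, the first catalogue number is known as an antibody to p300 (EP300) and the second as an antibody to CBP (CREBBP), the reverse of the titles. The peak lists were not used to decide between them. The names CREBBP and EP300 below therefore mean the libraries labelled so, and every direction between them rests on those titles. Cross-reaction of antibodies between such close paralogues was not tested either.

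As background, CREBBP was found as the partner of the cyclic AMP-responsive factor CREB and EP300 as the partner of the adenoviral protein E1A. Both carry a bromodomain, an acetyltransferase domain and domains that hold many transcription factors, and both acetylate histones at active enhancers. Germinal centre lymphomas often carry damaging mutations of CREBBP, and mutations of EP300 are known as well. Of 19974 protein-coding genes 50.4% were nearest to a pair. All 20 of 20 germinal centre B cell genes and 19 of 20 B cell identity genes were nearest to a pair, against 2 of 6 liver, 2 of 7 erythroid, 4 of 10 myeloid, 6 of 11 T cell and 5 of 6 neuron genes.

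Signal was compared by rank within each list, because depth and antibody differ between the libraries. A percentile of 100 marks the strongest pileup among paired peaks, and the rank difference is the CREBBP percentile minus the EP300 percentile. A pair is called CREBBP-leaning at a difference of 25 points or more, and EP300-leaning at 25 points or more the other way. The members nearest this line lay between 25.01 and 25.02 points inside and between 24.90 and 24.99 points outside it. These classes are descriptions made from the pileups themselves.

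Promoter sequence is shown first for 3 sites at each end of the range, since the share of gene starts differs between the classes below. The letters are the 250 bases upstream of the annotated start, read 5′ to 3′ on the gene's strand from RefSeq on GRCh38.p14. Capitals mark matches to the motifs searched, on either strand. Those present here are the CCAAT box (CCAAT), the core of the cyclic AMP response element (TGACG), the ETS core (CCGGAAG), the GC box (GGGCGG), the PU.1 motif (GAGGAAGT) and the octamer (ATTTGCAT). These are the summit-matched pairs, defined below, of largest rank difference with both summits in the promoter window, and the first 3 rank higher in the CREBBP library.
FANCM, chr14:45135680-45135929, plus strand: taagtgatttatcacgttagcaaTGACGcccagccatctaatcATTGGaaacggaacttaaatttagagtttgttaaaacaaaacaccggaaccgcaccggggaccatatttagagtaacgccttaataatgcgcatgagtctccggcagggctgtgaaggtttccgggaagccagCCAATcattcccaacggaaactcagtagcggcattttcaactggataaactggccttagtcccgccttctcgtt
ARID4A, chr14:58298305-58298554, plus strand: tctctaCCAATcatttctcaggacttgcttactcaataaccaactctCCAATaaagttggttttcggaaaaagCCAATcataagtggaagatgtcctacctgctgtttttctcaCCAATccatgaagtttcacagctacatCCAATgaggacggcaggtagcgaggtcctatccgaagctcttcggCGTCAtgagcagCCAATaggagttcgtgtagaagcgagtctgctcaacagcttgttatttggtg
BTAF1, chr10:91923520-91923769, plus strand: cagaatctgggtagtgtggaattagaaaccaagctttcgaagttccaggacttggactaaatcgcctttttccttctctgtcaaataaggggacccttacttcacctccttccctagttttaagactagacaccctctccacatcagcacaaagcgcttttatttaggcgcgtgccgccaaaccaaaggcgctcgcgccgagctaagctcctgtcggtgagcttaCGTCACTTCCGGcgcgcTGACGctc
The next 3 rank higher in the EP300 library.
BANK1, chr4:101790480-101790729, plus strand: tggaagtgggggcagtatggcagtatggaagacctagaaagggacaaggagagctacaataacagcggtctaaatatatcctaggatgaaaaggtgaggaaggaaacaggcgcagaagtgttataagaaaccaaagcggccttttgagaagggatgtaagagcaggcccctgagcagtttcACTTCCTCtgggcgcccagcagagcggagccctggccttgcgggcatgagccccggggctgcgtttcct
CDC25B, chr20:3799798-3800047, plus strand: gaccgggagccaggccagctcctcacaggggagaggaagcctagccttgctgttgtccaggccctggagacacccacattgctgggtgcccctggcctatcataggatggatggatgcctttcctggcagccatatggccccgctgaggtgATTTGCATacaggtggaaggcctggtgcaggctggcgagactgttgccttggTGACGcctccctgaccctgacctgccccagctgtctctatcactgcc
LOC105378104, chr6:163716943-163717192, minus strand: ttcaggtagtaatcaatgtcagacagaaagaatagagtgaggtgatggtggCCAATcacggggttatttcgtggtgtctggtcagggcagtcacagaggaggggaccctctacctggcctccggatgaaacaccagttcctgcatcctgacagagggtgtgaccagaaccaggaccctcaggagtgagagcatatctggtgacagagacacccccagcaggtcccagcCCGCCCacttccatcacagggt

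FANCM encodes a DNA translocase of the Fanconi anaemia pathway. Its CREBBP summit lay 123 bases upstream of the start with a pileup of 250, and the EP300 summit 38 bases upstream had a pileup of 34. ARID4A encodes a chromatin protein that binds the retinoblastoma protein, and its promoter had pileups of 59 for CREBBP and 24 for EP300. BTAF1 encodes a regulator of the TATA-binding protein and had 47 and 29. All 3 windows hold the TGACG core, and FANCM and ARID4A hold CCAAT boxes. At the EP300 end, BANK1, a B cell scaffold protein of antigen receptor signalling, had a CREBBP pileup of 10 and an EP300 pileup of 67. CDC25B, a mitotic phosphatase, had 14 and 116, and the lncRNA gene LOC105378104 had 9 and 63. The BANK1 window holds a PU.1 match and the CDC25B window an octamer and a TGACG core. The LOC105378104 window holds a CCAAT box and a GC box.

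Across all pairs the ranks rose together, with a Spearman rank correlation of 0.670 for pileup, 0.597 for fold enrichment and 0.519 for width. These correlations run across sites of 2 libraries called against the same input and carry no p. The median pileup was 20 for CREBBP (quartiles 13 and 41) and 61 for EP300 (33 and 139), in libraries of unlike depth. The rank difference was within 10 points for 45.2% of pairs (44.7 to 45.7). CREBBP-leaning pairs numbered 3692, or 8.99% of all, and EP300-leaning pairs 4937, or 12%. These shares depend on ranking among the paired peaks. With percentiles taken in each full list, 0.446% leaned to CREBBP and 38.6% to EP300. CREBBP peaks without a partner were weak, with a median pileup of 10, and the paired share climbed from 64.0% in the weakest 10% of CREBBP peaks to 99.8% in the strongest 10%.

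EP300 peaks were the wider member of most pairs. The median width was 344 bp for CREBBP and 751.5 bp for EP300, the median difference was −332 bp, and EP300 was wider in 91.2% of pairs (90.9 to 91.4). The CREBBP peak lay wholly inside its partner in 76.5%. The EP300 library was the deeper one, and the part of depth in this width gap was not tested. Summits lay close together, at a median of 38 bp (quartiles 15 and 119), and 81.4% of pairs had summits within 250 bp.

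One EP300 peak could carry up to 11 CREBBP peaks. A single CREBBP peak sat on 30039 of the partners, while 4594 partners held 2 or more, so that 11031 CREBBP peaks shared a partner. Most of the EP300-leaning class came from such shared partners. A stronger CREBBP peak lay on the same EP300 peak for 3897 of the 4937 EP300-leaning pairs (78.9%, 77.8 to 80.1), against 22 of 3692 CREBBP-leaning pairs (0.596%, 0.374 to 0.901). Summits were more than 250 bp apart in 78.7% of EP300-leaning and 6.58% of CREBBP-leaning pairs. The reverse case, a CREBBP peak that also overlaps a stronger EP300 peak, held for 2.93% of CREBBP-leaning pairs. With summits 0 to 25 bp apart the rank correlation was 0.902 and 2.64% of pairs leaned to EP300. At 501 to 1000 bp the rank correlation was 0.137 and 57.5% leaned to EP300, beside a median EP300 width of 1809 bp.

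**Figure D1:**
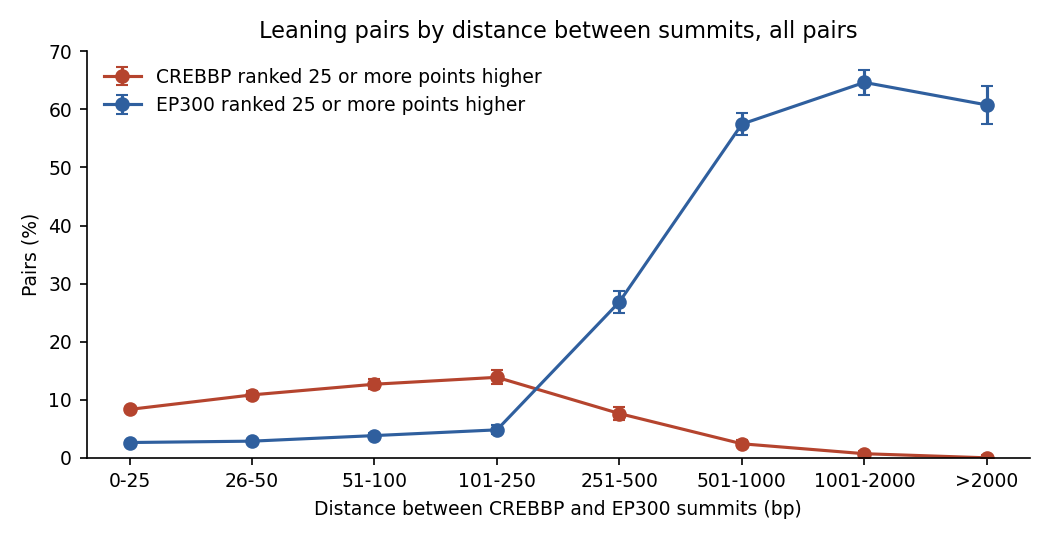
Share of all pairs (y axis, %) in which CREBBP (red) or EP300 (blue) ranked 25 or more points higher, by distance between the 2 summits (x axis, bp); bars are exact binomial 95% intervals for counting error. EP300-leaning pairs stay under 5% up to 250 bp and reach 64.6% at 1001 to 2000 bp.

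A second set was therefore formed, after these values were seen. It keeps pairs in which each peak is the other's nearest partner and the summits lie within 250 bp. These 33312 summit-matched pairs were ranked anew. The rank correlation was 0.860 for pileup, 0.787 for fold and 0.706 for width, and 58.2% of pairs (57.7 to 58.7) were within 10 points. CREBBP-leaning pairs made up 5.25% (1749) and EP300-leaning pairs 5.95% (1983). All 1749 of these CREBBP-leaning pairs, but only 1016 of the 1983 EP300-leaning ones (51.2%), were in the same class among all pairs. Widths were 353 bp and 631 bp, with EP300 wider in 89.8%, so EP300 was also the wider member with summits matched.

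**Figure D2:**
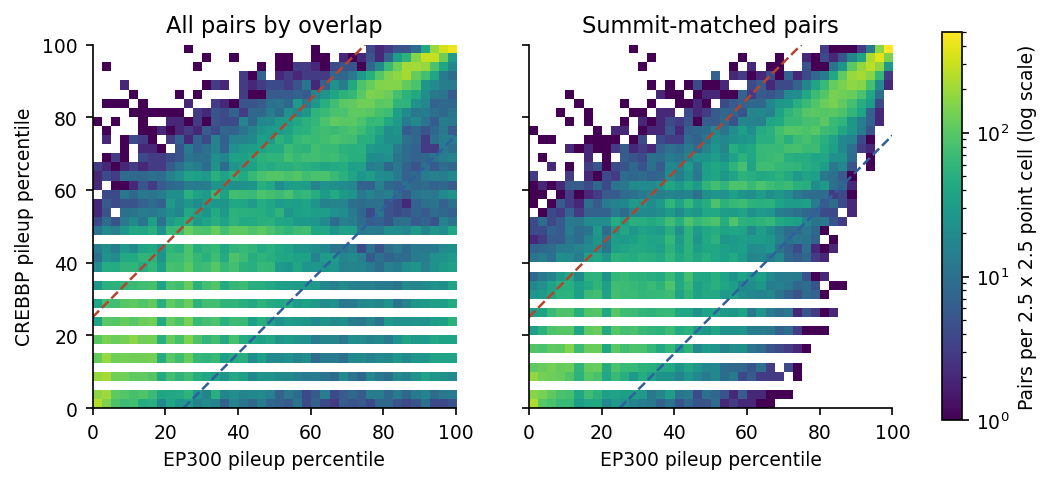
Number of pairs by EP300 pileup percentile (x axis) and CREBBP pileup percentile (y axis), in cells of 2.5 by 2.5 points on a log colour scale, for all pairs (left) and summit-matched pairs (right); dashed lines mark 25 points of difference and white bands are percentiles that no CREBBP pileup takes, because low whole-number pileups are tied. The lower right corner, weak CREBBP with strong EP300, is filled among all pairs and empty among the matched ones.

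Low pileups limit how finely sites can be ranked. For a CREBBP pileup of 10 the exact Poisson 95% interval runs from 4.80 to 18.4 tags, which spans percentiles 0 to 42.1 of the matched pairs. A pileup of 100 spans percentiles 85.8 to 90.9. Percentile intervals drawn in this way for both factors did not overlap for 680 of the 1749 CREBBP-leaning matched pairs (38.9%, 36.6 to 41.2) and for 710 of the 1983 EP300-leaning ones (35.8%, 33.7 to 38.0). The share of leaning pairs at a given mean percentile is bounded by construction, since both percentiles of a pair with a very high or low mean must be close. Between mean percentiles 20 and 40, 11.7% of matched pairs leaned to CREBBP and 13.2% to EP300, and between 40 and 60 8.25% and 10.4%.

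The 10 pairs of highest mean percentile had both pileups at the ceiling, 328 and 304. Their equal rank follows from that choice and from the ceiling, and their order carries no information. They lay at or nearest to PAPOLG, ANKRD30BL, COQ2, PFDN1, ALDH5A1, BTN3A2, EZR, ORAI2, RUBCNL and TSHR. EZR links the actin cortex to the membrane and ORAI2 is a calcium channel subunit. At RUBCNL the CREBBP peak was 3618 bp wide and the EP300 peak 15045 bp. At EZR the widths were 3832 and 9814 bp.

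Sites that ranked higher in the CREBBP library were often, but not mostly, at gene starts. Among all pairs the widest gap on the CREBBP side was at PEG10, an imprinted gene derived from a retrotransposon, at chr7:94656538-94657705, where CREBBP had a pileup of 134 and a fold of 58.3 while EP300 had 16 and 5.60. Among matched pairs the first was nearest to PEAK3, a pseudokinase scaffold gene, with pileups of 49 and 9. EED, a subunit of Polycomb repressive complex 2, followed with 84 and 21, and SLC35A2, a Golgi nucleotide sugar transporter, with 60 and 20. UBTF, a factor of RNA polymerase I transcription, had 44 and 16, and the linker histone gene H1-10 had 46 and 18. ATF5, a bZIP transcription factor gene, had 154 and 36, and TATDN2 had 190 and 38. Of the 15 leading matched pairs 7 were within 1 kb of a gene start, and all 15 had rank intervals that did not overlap. Those intervals come from the same pileups by which the 15 were chosen, so they are no separate support.

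Other names among these 15 were PVRIG, FANCM, H3-7, ARID4A, ARHGDIA, AMZ2, ZFTRAF1 and RRAGB, with CREBBP pileups from 28 to 250 and EP300 pileups from 9 to 38 over the 15. OCT2 and OCA-B peaks lay within 250 bp of the CREBBP summit at all 15, MED1 at 14 and OCT1 at 10. These factors are frequent at matched pairs with neither lean too: OCT2 89.2%, OCA-B 79.9%, MED1 78.1% and OCT1 34.9%. At EED a further EP300 peak with a pileup of 49 also lay under the CREBBP peak, and at FANCM one of 35. Among all pairs the leading names were the same except for 5, of which XXYLT1 and FRMD8 overlapped much stronger EP300 peaks further from the summit, with pileups of 277 and 170. The pair listed under RPIA, an enzyme of the pentose phosphate pathway, lies 31567 bp from that gene on the side of the immunoglobulin kappa genes. H3-7 and the immunoglobulin gene IGLL5 belong to families with near-identical copies, where reads may be placed on the wrong copy.

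Sites at the EP300 end differed between the sets. By overlap alone, the 15 widest gaps had CREBBP pileups of 7 to 9, EP300 pileups of 293 to 303, and summits 915 to 3931 bp apart. They included ARHGEF28 (7 and 300), GNPTAB (8 and 303), ELF1 (8 and 302), YY1 (8 and 302), SMAD1 (9 and 303) and MSI2 (9 and 302), given as CREBBP and EP300 pileups. Each was a weak CREBBP peak far from the summit of a wide EP300 peak, between 1651 and 7645 bp across. With summits matched, CREBBP pileups were 8 to 13 and EP300 pileups 79 to 142. ATF7IP, a cofactor of the histone methyltransferase SETDB1, led with 10 and 109 at chr12:14310992-14311155, 54597 bp from the gene.

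The matched EP300 end held many sites inside genes, where 52.4% of matched pairs with neither lean also lay, away from starts. UMAD1 had pileups of 9 and 94, ATP2B2, a plasma membrane calcium pump, 8 and 86, and ASB2, a ubiquitin ligase adaptor, 8 and 79. SLTM had 11 and 108, FOXN2 10 and 93, SPTBN1, a spectrin, 11 and 99, and JMJD1C, a Jumonji domain protein, 10 and 86. None of the 15 was within 1 kb of a gene start. An OCT2 peak lay within 250 bp of the CREBBP summit at 13 of the 15 and an OCA-B peak at 11, while MED1 was there at 5 and OCT1 at 4. Among matched pairs with neither lean, OCT2 was there at 89.2%, OCA-B at 79.9%, MED1 at 78.1% and OCT1 at 34.9%. At all 15 the rank intervals, made from the pileups by which the pairs were chosen, were apart. GOLGA6L10 belongs to a family of near-identical copies and its placement is uncertain.

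Sites of the largest width gaps differed in pileup rank in some cases and not in others. Relative to the partner, the widest CREBBP peak of a matched pair was inside NFE2L3, with 2564 bp against 152 bp, followed by a pair 1744 bp from IL4R, the interleukin 4 receptor gene, with 1806 against 156 bp. Both of these CREBBP peaks also overlapped a further, stronger EP300 peak, with pileups of 16 and 27. In the other direction a CREBBP peak of 213 bp lay on an EP300 peak of 5905 bp near SLC22A5. Inside IKZF3, a lymphoid Ikaros family gene, the widths were 164 and 2965 bp, and inside KLHL6, a germinal centre gene, 200 and 3367 bp. The rank differences at SLC22A5, IKZF3 and KLHL6 were −24.7, −13.8 and −15.2 points, all short of a lean. The pair near CFAP251 was equally strong in both lists, with pileups of 253 and 267, yet 560 bp wide for CREBBP and 10090 bp for EP300.

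Gene starts were more frequent among CREBBP-leaning pairs in both sets. Among matched pairs, either summit lay within 1 kb of the start of a protein-coding or lncRNA gene in 45.7% of CREBBP-leaning pairs (43.4 to 48.1), 10.1% of EP300-leaning pairs (8.84 to 11.5) and 20.3% of the others (19.8 to 20.8). Among all pairs the shares were 44.8%, 12.6% and 19.5%. The gap there was 32.2 points, and 12.2 points (6.01 to 19.2) with percentiles taken in each full list. The gap of 35.6 points between the leaning classes was 46.9 points when only pairs with separate rank intervals were kept. EP300-leaning matched pairs lay more often inside genes away from starts, at 62.1% (59.95 to 64.3) against 30.9% (28.7 to 33.1) of CREBBP-leaning pairs. For pairs with neither lean the share was 52.4% (51.8 to 52.9). Between genes lay 27.7% of EP300-leaning pairs, 23.4% of CREBBP-leaning pairs and 27.3% of the others. The gene start gap was present at like strength. Between mean percentiles 40 and 60, 16.8% of gene start pairs leaned to CREBBP and 4.596% to EP300, and elsewhere 5.46% and 12.3%.

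With distance from the start the lean turned over. CREBBP-leaning shares were highest 101 to 250 bp from a start, at 12.8% (11.2 to 14.6), and 2.32% (1.90 to 2.80) beyond 50 kb. EP300-leaning shares went from 2.70% (1.95 to 3.63) to 7.59% (6.83 to 8.40) over the same bins. The median rank difference moved from 7.67 points to −1.33. Summits of both factors lay at similar places around starts, at a median of 60 bases upstream for CREBBP and 55 for EP300 over 5581 matched pairs whose start has a known strand, and 47.5% of CREBBP summits were the further downstream (46.2 to 48.9).

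**Figure D3:**
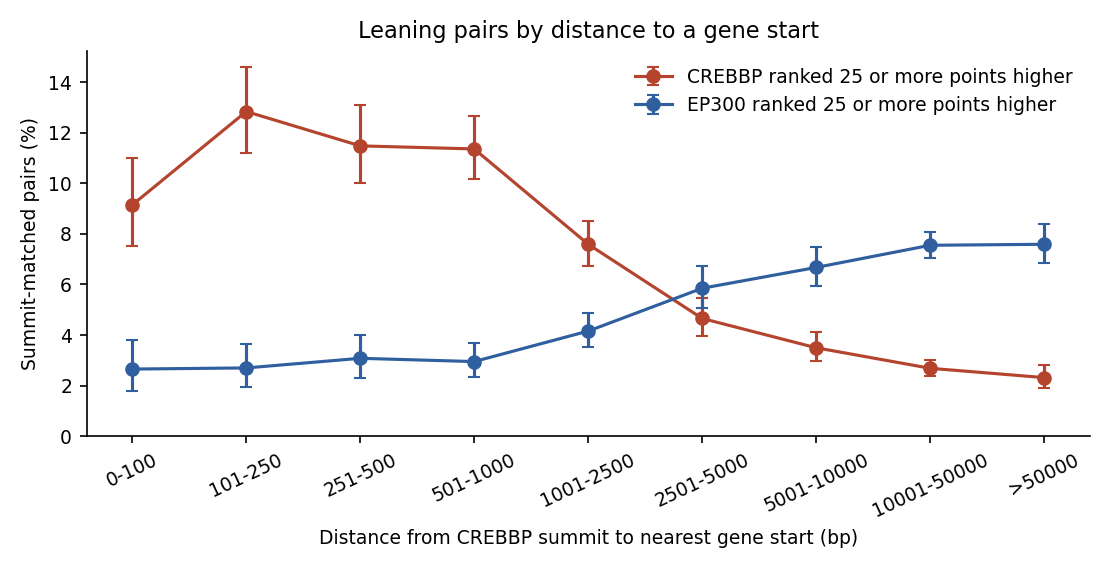
Share of summit-matched pairs (y axis, %) in which CREBBP (red) or EP300 (blue) ranked 25 or more points higher, by distance from the CREBBP summit to the nearest gene start (x axis, bp); bars are exact binomial 95% intervals for counting error. CREBBP-leaning pairs are the more frequent up to 2500 bp and EP300-leaning pairs the more frequent beyond 2500 bp, with overlapping intervals at 2501 to 5000 bp.

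Chromosome 19, rich in genes, stood furthest to the CREBBP side. There 10.8% of matched pairs leaned to CREBBP (9.32 to 12.5) and 3.11% to EP300 (2.29 to 4.11). Its gene start share was 32.6%, and the median rank difference away from starts was still 2.72 points, against −0.444 over all chromosomes. Chromosome 10 had the lowest CREBBP-leaning share, 2.72% (1.95 to 3.68), and a gene start share of 19.9%.

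The letters of the promoter windows, 250 bases before to 50 after the start, were searched where both matched summits fell inside. CREBBP-leaning pairs gave 209 windows, EP300-leaning pairs 35, and pairs with neither lean 1587. The CCAAT box was in 54.5% (47.5 to 61.4), 28.6% (14.6 to 46.3) and 41.4% (39.0 to 43.9) of these, and in 34.6% of all 34789 RefSeq windows. The TGACG core was in 39.2% (32.6 to 46.2), 17.1% (6.56 to 33.6) and 34.6% (32.3 to 37.0), and in 24.5% of all. The full cyclic AMP response element TGACGTCA, which contains that core, was in 6 of 209, 0 of 35 and 52 of 1587 windows, and in 1.84% of all. The PU.1 motif GAGGAAGT was in 2.39% (0.781 to 5.49), 7 of 35 (8.44 to 36.9%) and 5.36% (4.30 to 6.58), and in 2.60% of all.

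Between the leaning classes the intervals were apart for the CCAAT box and PU.1 and overlapped for both cyclic AMP elements and for all motifs that follow. The ETS core CCGGAAG was in 26.3% and 17.1% of CREBBP-leaning and EP300-leaning windows and in 10.2% of all, and the octamer ATTTGCAT in 3.83% and 11.4% and in 1.77% of all. The GC box GGGCGG, which also lies in the longer SP1 motif GGGGCGGGG, was in 43.5% and 45.7% and in 44.9% of all. SP1 was in 8.13% and 8.57%, against 15.7% of all. In windows with neither lean the ETS core was in 23.1%, the octamer in 3.21%, the GC box in 41.7% and SP1 in 10.9%. The YY1 core AAGATGGCG was in 7.66% and in 0 of 35, the E box CACGTG in 9.57% and 5.71%, the TATA box TATAAA in 23 of 209 and 1 of 35, and AP-1 (TGANTCA) in 2.87% and 14.3%. The IRF core was in 6.70% and 5.71%, and the NF-kB motif in 0.478% and in 0 of 35. Windows with neither lean held YY1 in 5.10%, the E box in 9.77%, TATA in 10.0%, AP-1 in 7.94%, IRF in 6.43% and NF-kB in 1.89%. In the same order, the shares of all windows were 1.76%, 7.24%, 11.6%, 7.69%, 3.57% and 1.53%. Median GC content was 54.0% and 56.3%. The median count of CpG dinucleotides was 17 and 8, with 16 in windows with neither lean and 14 in all windows. A match says only that these letters are present, and 35 windows are few.

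The peaks of other factors, which took no part in forming the pairs, were then compared between the classes. MED1, a Mediator subunit, lay within 250 bp of the CREBBP summit at 83.1% of CREBBP-leaning matched pairs (81.2 to 84.8), 49.2% of EP300-leaning pairs (46.9 to 51.4) and 78.1% of the others (77.7 to 78.6). OCA-B, the lymphoid coactivator of octamer factors, was at 84.3% (82.5 to 86.0), 65.6% (63.4 to 67.6) and 79.9%. The ubiquitous octamer factor OCT1 was at 40.9% (38.6 to 43.2), 15.2% (13.6 to 16.8) and 34.9%. Its lymphoid relative OCT2 was at 89.3% (87.7 to 90.7), 90.4% (89.0 to 91.7) and 89.2%, intervals that overlap. EP300-leaning pairs thus held OCT2 without MED1 in 43.0% of cases (40.8 to 45.2), against 10.9% (9.44 to 12.4) of CREBBP-leaning pairs. The share was 14.6% in pairs with neither lean. All 4 factors were together at 7.77% of EP300-leaning pairs, 36.4% of CREBBP-leaning pairs and 32.0% of those with neither lean. In both counts the EP300-leaning class lay further from the pairs with neither lean.

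The MED1 gap was present in both places. Near gene starts MED1 was at 91.9% of CREBBP-leaning (89.8 to 93.7) and 63.2% of EP300-leaning matched pairs (56.1 to 69.9), and away from starts at 75.7% (72.8 to 78.4) and 47.6% (45.2 to 49.9). OCT1 was at 63.3% and 37.3% near starts and at 22.02% (19.4 to 24.8) and 12.7% (11.2 to 14.3) away. Away from starts OCA-B was at 75.2% (72.4 to 78.0) and 63.5% (61.2 to 65.8). MED1, OCA-B and OCT1 there were no more frequent in CREBBP-leaning pairs than in pairs with neither lean, at 76.1%, 76.9% and 30.2% of the latter.

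Counting a factor anywhere in the union of both peaks, over all pairs, gave another picture. OCT1 was then at 38.7% of CREBBP-leaning and 62.5% of EP300-leaning pairs, MED1 at 85.0% and 87.0%, OCA-B at 85.3% and 91.4%, and OCT2 at 90.4% and 97.7%. The median union was 519 bp in the first class and 2098 bp in the second. Over the union in the matched pairs, however, OCT1 was at 39.3% and 15.8%, MED1 at 83.3% and 50.9%, and OCA-B at 84.4% and 66.5%. Counted over the union, the direction for these factors thus differed between the sets of pairs. Counted within 250 bp of the CREBBP summit, it was the same in both sets. Over all pairs OCT1 was then at 39.3% of CREBBP-leaning and 11.6% of EP300-leaning pairs. MED1 was at 84.9% and 77.6%, and OCA-B at 85.2% and 64.5%. Over all pairs, however, this window left out the EP300 summit in 78.7% of EP300-leaning and 6.58% of CREBBP-leaning pairs. No count around the EP300 summit was made, so the like direction in both sets is no independent check.

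**Figure D4:**
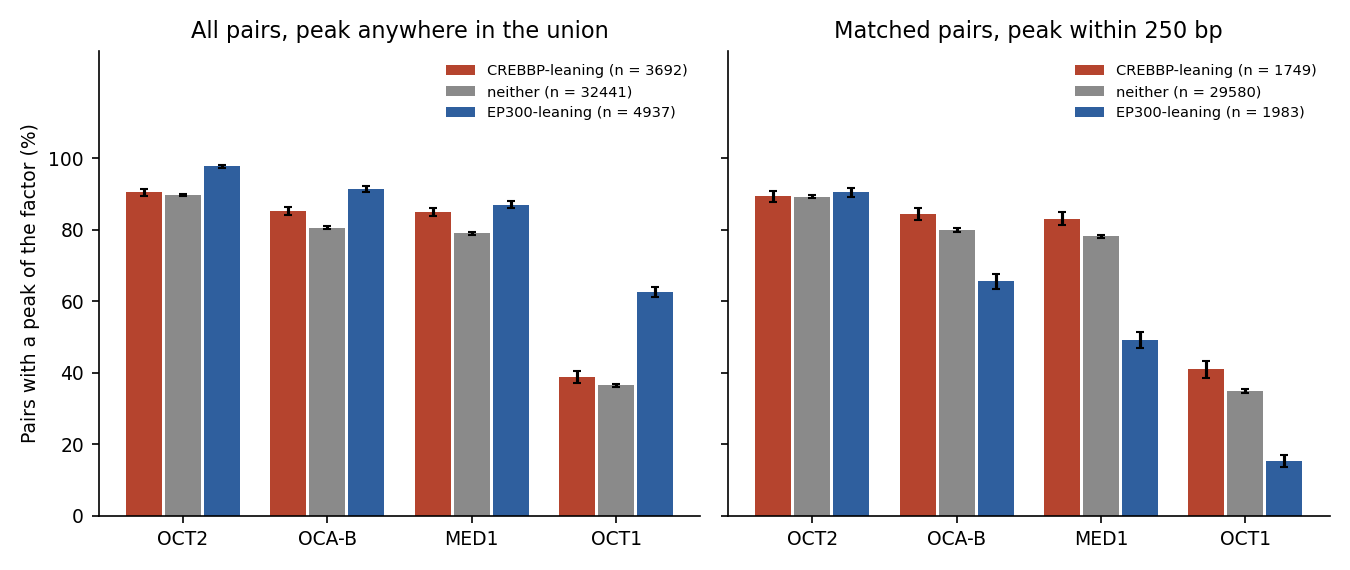
Share of pairs (y axis, %) with a peak of OCT2, OCA-B, MED1 or OCT1, in CREBBP-leaning (red), non-leaning (grey) and EP300-leaning (blue) pairs; error bars are exact binomial 95% intervals. Left: all pairs, with a peak anywhere in the union; right: summit-matched pairs, with a peak within 250 bp of the CREBBP summit. OCT1 is higher in EP300-leaning pairs on the left and lower on the right.

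Pileups were compared as well. Among matched pairs with a MED1 peak at the CREBBP summit, the MED1 pileup had a rank correlation of 0.768 with CREBBP and 0.659 with EP300 over 25543 pairs. For OCT2 the values were 0.729 and 0.683, for OCA-B 0.700 and 0.631, and for OCT1 0.450 and 0.402. Sites and the input are shared among these lists. The MED1 library has the same redundant rate as the CREBBP one, 0, where the others have 0.08 to 0.2. Modelled fragments were 174 bp for MED1, 169 bp for OCT1 and 164 bp for CREBBP, and 152, 148 and 145 bp for EP300, OCA-B and OCT2. The part of duplicate handling and fragment length in these gaps was not tested.

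Gene lists were read against 5.25% CREBBP-leaning and 5.95% EP300-leaning pairs and a median rank difference of 0.341 among all matched pairs. That median was 5.94 at gene starts and −0.444 away from them. A pair was given to the nearest protein-coding gene within 100 kb. Replication-dependent and other histone genes stood furthest to the CREBBP side. Of 129 matched pairs nearest to 54 of 74 such genes, 62 leaned to CREBBP and 1 to EP300, and the median difference was 24.5 points (quartiles 11.9 and 33.0). It was 26.3 at gene starts and 20.2 away from them. H2BC15 had 3 pairs with a median of 30.9 and H2BC13 had 6 with a median of 27.0, while H2BC5 had 8 with 7.50. Histone genes lie in clusters of near-identical copies, so neighbouring pairs are not separate cases.

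Small nuclear RNA genes, which encode parts of the spliceosome or the RN7SK RNA, had 27 matched pairs within 1 kb, of which 6 leaned to CREBBP and 0 to EP300, with a median of 16.1. Ribosomal protein genes had 119 pairs at 50 of 81 genes. Of these 19 leaned to CREBBP and 5 to EP300, with a median of 10.4 that was 16.1 at starts and 4.70 elsewhere. RPL13A and RPL28 had medians of 23.6 each over 3 pairs, and RPS14 one of −0.180 over 4. Cell cycle genes had 8 of 43 pairs leaning to CREBBP and 0 to EP300, with a median of 4.28. Their median was 4.82 at starts, below the 5.94 of all matched pairs at starts, and −0.0848 elsewhere. In this list RRM2, a subunit of ribonucleotide reductase, had 17.4 over 5 pairs and the replicative helicase gene MCM3 −8.81 over 6. Of the cell cycle pairs 48.8% and 45.4% of the ribosomal protein pairs were at gene starts, against 21.0% of all matched pairs.

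B cell lists lay near the centre. Germinal centre B cell genes had 198 matched pairs, 13 leaning to CREBBP (6.57%) and 8 to EP300 (4.04%), with a median of 0.394. B cell identity genes had 138 pairs, 7 and 10 leaning, with a median of −1.59. B cell receptor signalling genes had 168 pairs, 4 and 12 leaning, with a median of −2.04. Plasma cell genes had 66 pairs, 3 and 0 leaning, with a median of 3.20, and CD40 and NF-kB response genes 45 pairs, 2 and 2 leaning, with 0.962. Class II antigen presentation genes had 24 pairs, 0 and 1 leaning, with a median of −1.37.

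Lists of signal response and chromatin genes were described in the same way. Cyclic AMP and immediate early genes, the classical setting of CREB, had 68 matched pairs with 6 leaning to CREBBP (8.82%) and 4 to EP300 (5.88%), and a median of 1.53. EGR2 had 5.86 over 5 pairs and NR4A1 −4.92 over 4. Interferon response genes had 29 pairs, 1 and 1 leaning, with a median of 1.83. Hypoxia response genes had 30 pairs, 4 leaning to CREBBP (13.3%) and 2 to EP300 (6.67%), with a median of −0.251. Chromatin regulator genes had 61 pairs, 6 (9.84%) and 2 (3.28%) leaning, with a median of 0.351. In the last list KMT2D and KMT2A, histone H3 lysine methyltransferase genes, had medians of 19.2 over 3 and 17.8 over 4 pairs, and DNMT3A, a DNA methyltransferase gene, −11.2 over 4. Among other cell types, T cell genes had 20 pairs and a median of 0.917, neuron genes 12 and −5.68, myeloid genes 7 and −17.2, erythroid genes 4 and 11.1, and liver genes 3 and −28.0.

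**Figure D5:**
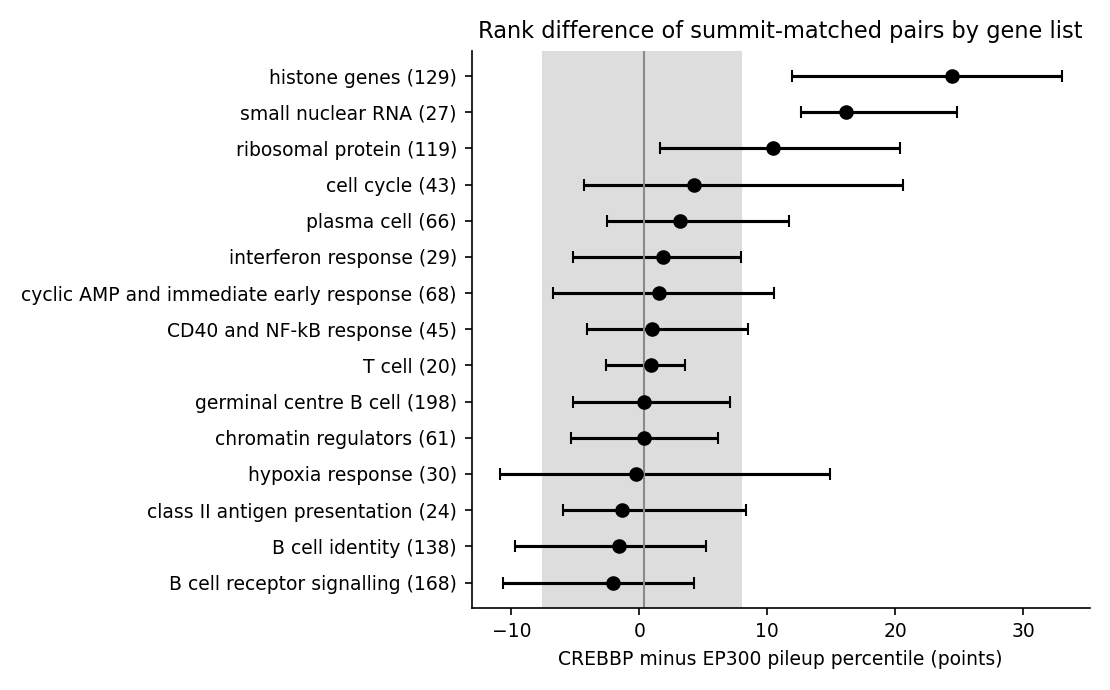
Median rank difference (points; dot) and quartiles (bars) of summit-matched pairs in the gene lists with 20 or more pairs, with the number of pairs in brackets; the grey line and band are the median and quartiles of all matched pairs. Histone, small nuclear RNA and ribosomal protein genes have the 3 highest medians, at 24.5, 16.1 and 10.4 points.

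Among all pairs, read against 8.99% and 12% and a median of 3.86, the histone list again stood out with 97 of 155 pairs leaning to CREBBP and a median of 30.0. Small nuclear RNA genes had 13 of 35 and 22.6, and ribosomal protein genes 37 of 131 and 16.2. Of the B cell receptor signalling pairs 9 of 230 leaned to CREBBP and 35 to EP300, and of the B cell identity pairs 11 of 224 and 50. For T cell genes it was 1 and 13 of 37, with 5 EP300-leaning pairs each at IL2RA and LCK and 3 at CD3E. Among the matched T cell pairs it was 0 and 1 of 20.

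Medians were also taken for single genes. Over 816 genes with 8 or more matched pairs, the percentiles 5 and 95 of the gene medians were −7.67 and 6.85 points. The highest were H4C15 (22.8 over 12 pairs), the immediate early gene IER2 (22.6 over 9), H2BC26 (21.9 over 8), EDEM1, an endoplasmic reticulum degradation factor (17.6 over 9), ARHGEF1 (15.8 over 9), and TMPO (15.7 over 8). HNRNPF, RHOU, MEF2B and TGIF1 followed at 14.9, 13.8, 12.5 and 12.3. All 9 pairs of IER2 lay away from gene starts. The range within a gene was wide: at IER2 it ran from −28.5 to 47.7.

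At the low end VAV2, an exchange factor downstream of antigen receptors, had a median of −20.9 over 9 pairs, with MED1 at 2 of them. The kinase gene SIK3 had −16.7 over 12, the adhesion receptor gene CD44 −15.4 over 13, the costimulatory receptor gene CD28 −13.6 over 10, and PRKCB, a kinase of B cell receptor signalling, −12.9 over 10. EXOC6, JAZF1, PNOC, IKZF1 and CSK followed between −12.5 and −11.8. At IKZF1, the Ikaros gene, MED1 was at 12 of 13 pairs. Among all pairs the low end was held by CHI3L2, HADH and GSDME, at −54.9, −37.3 and −30.5, none of which is among the lowest matched genes.

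At each of the genes central to this cell type, most matched pairs leaned to neither library. BCL6, the germinal centre repressor, had 17 matched pairs with a median of 11.4, of which 6 leaned to CREBBP and 0 to EP300, and its difference ran from −8.75 to 51.1. Its 2 strongest pairs, 27959 and 83698 bp from the gene, had pileups of 101 and 269 and of 107 and 224 for CREBBP and EP300, and differences of −7.15 and −2.20 points. Pairs chosen for a high mean rank cannot differ widely. CIITA, the class II transactivator, had 7 matched pairs, 0 leaning either way, and a median of −1.89. One pair inside it, at chr16:10891449-10892505, had pileups of 55 and 260 and another had 110 and 158. POU2AF1, which encodes OCA-B, had 10 pairs, 2 leaning to CREBBP and 0 to EP300, and a median of 2.49. The strongest, inside the gene, had 174 and 239, and the one 518 bp from the gene had 153 and 230.

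POU2F2, which encodes OCT2, had 8 matched pairs with a median of −2.36, 0 leaning to CREBBP and 1 to EP300. Its strongest had 78 and 247. PAX5, the B lineage factor, had 18 pairs with a median of −2.39, 1 leaning to CREBBP and 1 to EP300. Its strongest pair, 67382 bp away, had 186 and 291. MYC had 6 pairs with a median of −0.0525, 1 leaning to CREBBP and 0 to EP300. Of the 2 genes that encode the proteins studied, CREBBP held 1 pair, inside the gene at chr16:3860723-3861159 with pileups of 27 and 69 and percentiles of 58.8 and 59.9. EP300 held 4 matched pairs, the strongest 23458 bp away with 96 and 233, and a median of 0.0218. All pairs named here by position or pileup differed by less than the 25 points that define a lean.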

How the data were processed

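Chromatin immunoprecipitation and input libraries of OCI-Ly7 cells were sequenced, 1 library per factor, and the authors deposited 1 MACS2 peak table per factor on hg38. The submitters' processing notes list MACS2 2.1.1.20160309 and SAMtools 1.3.1, and give Bowtie2 as 2.3.2.2 and CASAVA as 1.8.2. Per the file headers, peaks were called against the same input at a q-value of 0.05 in narrow mode with a bandwidth of 300, keeping 1 tag per position. The deposited pileup signal is in whole tags at the summit, although the headers name a per-million option. Fold enrichment is the deposited ratio of signal to the local background, and significance is deposited as −log10 of the q-value. Peak width is the deposited length in bp.

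From these, pairs, percentile ranks (ties averaged), widths and summit distances were computed with Python 3.11.15, numpy 2.4.6, pandas 2.3.3 and scipy 1.17.1, and checked on simulated peaks. Gene starts came from 38151 RefSeq protein-coding and lncRNA genes on GRCh38.p14, of which 27195 have a strand in the promoter table. Both gene ends were used for the others. Exact binomial and Poisson 95% intervals cover counting error only. The members and lists were chosen with earlier results of these data known. The summit-matched pairs, the window of 250 bp around CREBBP summits and the rank intervals were chosen after seeing the data. Genes were named by rule: the nearest protein-coding genes of the 15 pairs at each extreme, the 10 highest and lowest gene medians over 8 or more pairs, the 10 strongest and the 5 relatively widest pairs, the 2 members furthest each way per list, and a fixed set of 8 genes. Peaks outside chromosomes 1 to 22 and X were left out.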

Additional observations from a re-analysis of the deposited data

Results flagged for a closer look

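Peaks on contigs other than chromosomes 1 to 22 and X took no part in the pairing, and both lists hold signal there. The CREBBP list has 1794 such peaks and the EP300 list 2947. They were set apart because they are called peaks in data that no comparison above uses, and no comparison of their strength was made.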

How the results depend on the processing

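Among all pairs the values were a paired share of 92.1%, a rank correlation of 0.670, a median width difference (CREBBP minus EP300) of −332 bp, a summit offset of 38 bp, and leaning shares of 8.99% and 12%. The differences between leaning classes below are in percentage points, CREBBP minus EP300. They were 32.2 for gene starts, −23.8 for OCT1, −1.99 for MED1, −6.13 for OCA-B and −7.25 for OCT2, counted over the union of both peaks. With summits within 250 bp, the paired share was 75.3%, the rank correlation 0.859, the median width difference −249 bp, the summit offset 28 bp, CREBBP-leaning 5.22% and EP300-leaning 5.96%. There the gene start difference was 35.2, OCT1 22.9, MED1 32.0, OCA-B 17.6 and OCT2 −1.89. At a −log10 q of at least 5, the paired share was 93.8%, the rank correlation 0.722, the median width difference −346 bp, the summit offset 31 bp, CREBBP-leaning 7.60% and EP300-leaning 10.7%. There the gene start difference was 35.5, OCT1 −12.3, MED1 6.38, OCA-B −2.06 and OCT2 −2.99. With the EP300 list shortened to the CREBBP length, the paired share was 82.6%, the rank correlation 0.627, the median width difference −386.5 bp, the summit offset 36 bp, CREBBP-leaning 9.80% and EP300-leaning 12.9%. There OCT2 was −5.27. With each peak the other's nearest partner, the paired share was 77.7%, the rank correlation 0.855, the median width difference −253 bp, the summit offset 29 bp, CREBBP-leaning 5.40% and EP300-leaning 6.12%. There the gene start difference was 34.3, OCT1 21.4, MED1 31.7, OCA-B 17.1 and OCT2 −1.23. With fold in place of pileup, the rank correlation was 0.597, CREBBP-leaning 12.9%, EP300-leaning 13.7%, the gene start difference 28.2, OCT1 −16.1 and MED1 −0.349. With percentiles in each full list, CREBBP-leaning was 0.446%, EP300-leaning 38.6%, the gene start difference 12.2, OCT1 −10.1, MED1 4.73 and OCA-B 2.80. At 35 points or more, CREBBP-leaning was 3.10% and EP300-leaning 8.48%. Within 5 bins of mean rank, OCT1 was −10.8, MED1 4.63, OCA-B −0.903 and OCT2 −5.04. Within 5 bins of union width, OCT1 was 12.7, MED1 29.2, OCA-B 14.3 and OCT2 1.35. The settings that follow were chosen after seeing the data. In the summit-matched pairs, the paired share was 74.7%, the rank correlation 0.860, the median width difference −249 bp, the summit offset 28 bp, CREBBP-leaning 5.25% and EP300-leaning 5.95%. There the gene start difference was 35.6, OCT1 23.5, MED1 32.4, OCA-B 17.9 and OCT2 −1.55. In matched pairs ranked by fold, the rank correlation was 0.787, CREBBP-leaning 8.26%, EP300-leaning 9.16%, OCT1 25.9, MED1 29.9 and OCA-B 16.4. There OCT2 was −0.402. In matched pairs with rank intervals apart, CREBBP-leaning was 2.04%, EP300-leaning 2.13%, the gene start difference 46.9, OCT1 36.3, MED1 39.3 and OCA-B 11.7. There OCT2 was −1.06. In matched pairs within bins of mean rank, the gene start difference was 35.3, OCT1 25.03, MED1 33.8, OCA-B 18.9 and OCT2 −1.19. In matched pairs within bins of union width, the gene start difference was 35.6, OCT1 26.7, MED1 41.2, OCA-B 23.4 and OCT2 2.304. Counting factors near the CREBBP summit, OCT1 was 27.7, MED1 7.28, OCA-B 20.7 and OCT2 4.94. Counting them so in matched pairs, OCT1 was 25.7, MED1 33.9, OCA-B 18.8 and OCT2 −1.17. Counted over the union, the signs of the OCT1, MED1 and OCA-B differences thus varied with the choice of pairs. Counted near the CREBBP summit, they were positive both over all pairs and in matched pairs. In all pairs ranked as at first, they were negative over the union and positive near the summit. Over all pairs the window near the CREBBP summit left out the EP300 summit in most EP300-leaning pairs, and no count around the EP300 summit was made. The gene start difference kept its sign under every setting it was run with, and EP300 was the wider member in the 5 other sets of pairs for which width was recomputed. The cause of these changes was not tested. No paired analysis was possible because each factor has 1 library, and for the same reason no library could be left out. Low pileups limit the ranks of weak sites.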
